A study of Mus musculus with 2 samples.

Results

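T cells carry a family of surface receptors that tune the signal of the T cell receptor. CD28 and ICOS add a costimulatory signal when they bind B7-type ligands on another cell, while CTLA-4, PD-1 and BTLA, relatives of CD28, dampen activation. LAG-3, TIGIT and TIM-3 are inhibitory receptors of other families, CD5 is a scavenger-type receptor that restrains signalling by the T cell receptor, and CD200 is a surface ligand for an inhibitory receptor of myeloid cells. Treg cells are known for carrying high CTLA-4, and most of these receptors are induced or strengthened by T cell activation. The 10 genes described here are the rows of the deposited table whose symbol is Cd28, Icos, Ctla4, Pdcd1, Btla, Lag3, Tigit, Havcr2, Cd200 or Cd5, out of 23282 rows in all.

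Naïve CD4+ T cells from the spleens of female wild-type C57BL/6 mice, aged 7 to 10 weeks, were driven toward iTreg cells for 1 day in the presence of the vehicle DMSO (Control) or of Tubastatin A (TSA) at 10 μM, an inhibitor selective for the deacetylase HDAC6. Both cultures were stimulated with plate-bound anti-CD3ε and soluble anti-CD28 and received mouse IL-2 (1 ng/ml), human TGF-β1 (5 ng/ml) and antibodies that block IFN-γ and IL-4, so CD28 itself was engaged by an antibody in both. There was 1 library per condition. No difference below has a replicate check, and no p-value is given. The comparison asks how the mRNA levels of these receptors differed between a Control and a TSA-treated culture early in iTreg differentiation. RNA came from whole cultures, so fewer cells of a type and less RNA per cell cannot be told apart.

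The libraries were 3′ tag libraries, in which a transcript gives about 1 read whatever its length. CPM (reads scaled to the library total) was therefore set side by side between genes without a length correction. The annotation used for counting is not given, so how fully the reads of each gene were caught is not known. The intervals below do not cover that. They held 10846149 (Control) and 10432695 (TSA) reads on genes. The deposited values are log2 of a normalized read count plus 1, and reads were recovered from them. The 95% intervals are Clopper-Pearson intervals computed from the reads. They cover counting error only, since PCR copies of a molecule could not be told apart, and set 1 library against the other, not the conditions. At these depths the floor of 3 reads corresponded to 0.277 CPM (Control) and 0.288 CPM (TSA). Genes that reached 10 reads in 1 library or both, 12164 in all, were tested against a 2-fold threshold, among them 8 of the 10 receptors. Tigit and Havcr2 had too few reads. The T cell markers Cd3d, Cd3e, Cd3g, Cd247, Cd4 and Cd2 summed to 12717 and 15185 reads, and 5 of the 6 were higher in the TSA library, with a median log2 fold change of 0.32. The Treg markers Foxp3, Il2ra, Ikzf2 and Ikzf4 summed to 11947 and 9777 reads and all 4 were lower. With total-read or upper-quartile scaling 3 of the 4 were lower. As deposited, the counting intervals of Cd4 (0.981 to 1.10) and Ikzf2 (0.867 to 1.11) included no change. At any size, 51.3% of all genes tested were higher and 48.6% lower. Of the well covered genes, defined below, 42.8% were higher and 57.1% lower. Foxp3 had 1633 and 965 reads, a fold change (TSA over Control) of 0.586. Hdac6, whose product TSA inhibits, had 146 and 166 reads, with a fold change of 1.13 (95% interval 0.896 to 1.42). Markers of other cell types had few reads. B cell markers summed to 12 and 15 reads, NK cell markers to 0 and 3, myeloid markers to 28 and 25, red cell markers to 32 and 45, platelet markers to 26 and 35, and CD8 markers to 80 and 87, of which Cd8b1 held 65 and 77. Dendritic cell markers summed to 6 and 44 reads, of which Flt3 held 0 and 33 and Zbtb46 2 and 11, and both were higher by more than 2-fold (11.5% of all genes tested), as was the red cell marker Hbb-bs with 4 and 17 reads. The dendritic cell marker Itgax, with 4 and 0 reads, had too few. The B cell marker Cd79b, with 11 and 4 reads, was lower by more than 2-fold (3.15% of all genes tested), with an interval that included no change. Flt3, Zbtb46 and Hbb-bs reached 10 reads only under TSA, and Cd79b only under Control, where each was high. These calls are therefore no support for a difference in such cells. The part of other cell types in the results below was not tested.

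The promoters of the 3 inhibitory members of the CD28 family are shown because their transcripts differed in opposite directions between the libraries. Each is 300 bases long, from 250 bases before to 50 bases after the RefSeq start site on GRCm38.p6, and capitals mark GGAAA or, on the other strand, TTTCC, the core recognised by NFAT, the calcium-driven factor of T cell activation. Pdcd1 lies on the minus strand at chr1:94052504-94052803, Ctla4 on the plus strand at chr1:60908775-60909074 and Btla on the plus strand at chr16:45224087-45224386.
Pdcd1: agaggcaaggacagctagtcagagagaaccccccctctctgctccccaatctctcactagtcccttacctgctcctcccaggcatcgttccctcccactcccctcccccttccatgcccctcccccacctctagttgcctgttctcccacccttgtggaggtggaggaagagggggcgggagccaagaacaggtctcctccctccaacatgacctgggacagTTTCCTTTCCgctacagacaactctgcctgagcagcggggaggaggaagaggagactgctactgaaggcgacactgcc
Ctla4: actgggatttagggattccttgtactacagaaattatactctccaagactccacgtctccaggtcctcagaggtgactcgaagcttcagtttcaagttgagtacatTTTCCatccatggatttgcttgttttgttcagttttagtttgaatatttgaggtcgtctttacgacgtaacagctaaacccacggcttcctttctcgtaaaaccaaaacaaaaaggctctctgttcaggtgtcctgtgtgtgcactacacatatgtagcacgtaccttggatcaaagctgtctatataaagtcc
Btla: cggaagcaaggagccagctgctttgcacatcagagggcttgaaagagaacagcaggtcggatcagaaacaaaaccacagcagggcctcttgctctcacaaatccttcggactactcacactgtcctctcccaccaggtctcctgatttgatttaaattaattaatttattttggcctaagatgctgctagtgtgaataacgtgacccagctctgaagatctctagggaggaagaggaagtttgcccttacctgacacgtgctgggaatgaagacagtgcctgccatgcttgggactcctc

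The NFAT core occurred at 2 places in the Pdcd1 promoter, at 1 in the Ctla4 promoter and at none in the Btla promoter. Of 32851 promoters of this length in the table, 61.3% hold at least 1 match. Of the 10 receptors, 7 had a promoter in the table, and the core also occurred at 2 places in that of Tigit, at 1 place in that of Cd5 and at none in those of Havcr2 and Cd200. The other motifs were searched on both strands. The AP-1 motif TGANTCA was found in the Havcr2 promoter alone of the 7 (7.81% of all promoters), the RUNX core TGTGGT in those of Btla, Tigit and Havcr2 (16.8%), the E-box CACGTG in that of Btla (7.15%), TATAAA in that of Ctla4 (13.6%) and the STAT motif TTCNNNGAA in none (8.30%). The GC content was 60.7% for Pdcd1, 42.0% for Ctla4 and 49.0% for Btla, against a median of 52.7% over all promoters. A match describes these letters and is not a measured binding site.

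The 10 receptors together had nearly equal reads in the libraries, but their make-up differed. They summed to 9713 reads under Control and 9345 under TSA, a CPM of 896 in each, and a fold change of 0.953 (95% interval 0.926 to 0.980) on the deposited scale. Pdcd1, which encodes PD-1, was lower in the TSA library by close to 2-fold, and Btla was higher by close to 1.5-fold. Icos, Ctla4 and Cd5 were lower by small amounts, and Cd28 and Cd200 were higher by small amounts. Lag3, Tigit and Havcr2 held 27 reads of the 9713 and 44 of the 9345.

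**Figure D1:**
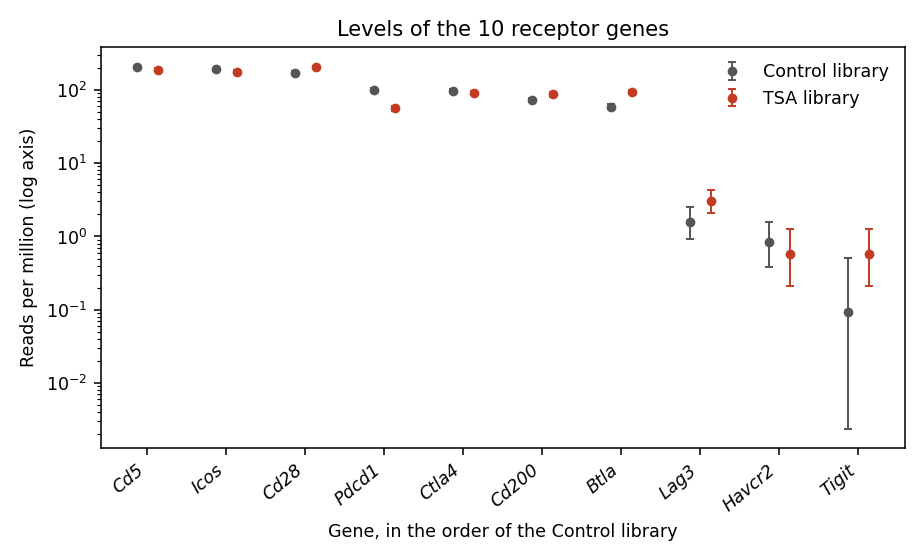
CPM of the 10 receptor genes on a log axis, in the Control (grey) and the TSA (red) library, with bars for the exact 95% counting interval. The 7 well covered genes lie at a CPM of 55.9 or higher in both libraries, and Lag3, Havcr2 and Tigit at 3.07 or lower.

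None of the 8 tested receptors passed 2-fold in either direction. Of all genes tested, 11.5% were higher by that much and 3.15% lower. At 1.5-fold, Lag3 was higher and Pdcd1 was lower, 1 receptor in each direction, where 18.7% of all genes tested were higher and 8.34% lower. Many of those genes had few reads. Among the 8188 genes whose mean normalized count reached 100, which include 7 of the receptors, 6.05% were higher and 5.90% lower by 1.5-fold, and Pdcd1 was the receptor past that size. The counting interval left out no change for all 8 tested receptors, 4 of them above it (Cd28, Btla, Lag3 and Cd200) and 4 below it (Icos, Ctla4, Pdcd1 and Cd5). With so many reads such intervals are narrow for most genes: 28.1% of all genes tested lay above no change and 28.0% below it, and of the 8188 well covered genes 23.4% lay above and 36.5% below, so that this count says little about the receptors. The median log2 fold change was -0.17 for the 7 well covered receptors, against -0.058 for all well covered genes, and -0.00050 for the 8 tested receptors, against 0.015 for all genes tested.

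**Figure D2:**
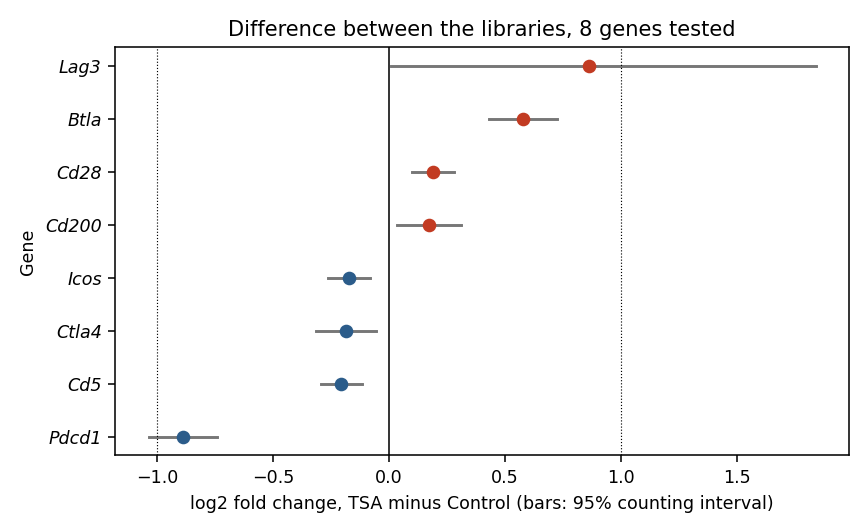
The log2 fold change (deposited TSA value minus deposited Control value) of the 8 receptors tested, as points, with the exact 95% counting interval as bars and dotted lines at 2-fold. Pdcd1 is the lowest at -0.89, and Btla (0.58) and Lag3 (0.86) are the highest, with a wide bar for Lag3.

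The costimulatory members of the family did not move together. Cd28, which encodes the receptor that the culture's anti-CD28 antibody binds, had 1848 reads under Control and 2128 under TSA, or a CPM of 170 and 204. It was higher in the TSA library, with a fold change of 1.14 (95% interval 1.07 to 1.21). Icos, which encodes the inducible costimulator that activated T cells display, had 2060 and 1845 reads, or a CPM of 190 and 177. It was lower in the TSA library, with a fold change of 0.887 (0.832 to 0.945). Within the Control library Icos had 1.11 reads for each Cd28 read, and within the TSA library 0.867. This ratio does not depend on how the libraries were scaled, and it was 0.778 times as large in the TSA library (0.711 to 0.851).

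The well covered inhibitory members of the CD28 family held both the lowest and the highest fold change of the 7 well covered receptors. Ctla4, which encodes the receptor that competes with CD28 for CD80 and CD86, had 1051 and 933 reads, or a CPM of 96.9 and 89.4, a fold change of 0.879 (0.804 to 0.961). With total-read scaling, its interval of 0.844 to 1.01 included no change. Pdcd1 had 1069 and 583 reads, or a CPM of 98.6 and 55.9. Its fold change of 0.541 (0.487 to 0.598) was the lowest of the receptors, and 152 of the 8188 well covered genes, 1.86%, had a lower value. Btla, which encodes the receptor of the ligand HVEM, had 638 and 961 reads, or a CPM of 58.8 and 92.1. Its fold change was 1.49 (1.35 to 1.65), and 504 well covered genes, 6.16%, had a higher value.

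**Figure D3:**
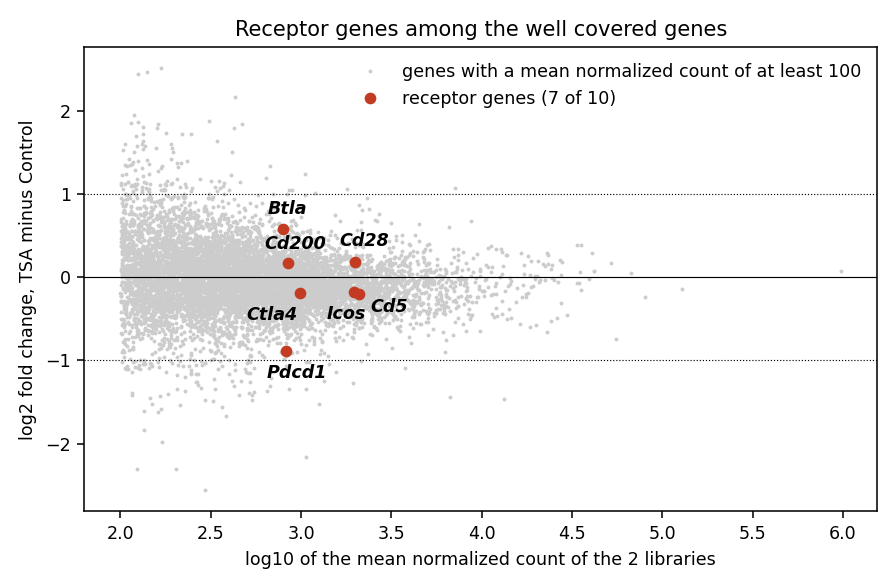
The log2 fold change of the 8188 genes whose mean normalized count reached 100 (grey) against the log10 of that mean, with the 7 well covered receptors in red and dotted lines at 2-fold. Pdcd1 lies near the lower dotted line and Btla above most genes of its level, while Cd28, Cd200, Icos, Ctla4 and Cd5 lie within the dense band.

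The order of the levels changed most for Pdcd1 and Btla. In the Control library the order was Cd5, Icos, Cd28, Pdcd1, Ctla4, Cd200, Btla, Lag3, Havcr2 and Tigit. The neighbours Pdcd1 and Ctla4 did not differ beyond counting error (ratio 1.02, 95% interval 0.933 to 1.11), and neither did Lag3 and Havcr2 (ratio 1.89, 0.796 to 4.81). In the TSA library the order was Cd28, Cd5, Icos, Btla, Ctla4, Cd200, Pdcd1 and Lag3, followed by Havcr2 and Tigit at equal reads. There Cd5 and Icos (1.06, 0.991 to 1.13), Btla and Ctla4 (1.03, 0.940 to 1.13) and Ctla4 and Cd200 (1.04, 0.944 to 1.14) did not differ beyond counting error. Pdcd1 thus stood level with Ctla4 in the Control library and below Cd200 in the TSA library, where Cd200 had 1.55 reads for each Pdcd1 read (1.39 to 1.72).

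Read ratios within a library separated the receptors further. For each Ctla4 read there were 1.02 Pdcd1 reads under Control and 0.625 under TSA, a ratio 0.614 times as large (0.536 to 0.704). The ratio of Pdcd1 to Cd28 was 0.578 and 0.274, or 0.474 times as large (0.420 to 0.534). The ratio of Ctla4 to Cd28 was 0.569 and 0.438, or 0.771 times as large (0.691 to 0.860). With Cd5 in place of Cd28 as the reference, the Ctla4 ratio was 0.472 and 0.478 (change 1.01, 0.910 to 1.13) and the Icos ratio 0.925 and 0.946 (change 1.02, 0.937 to 1.12), so neither differed beyond counting error, whereas the Pdcd1 ratio was still lower (change 0.623, 0.553 to 0.702). Further ratios were chosen after the values were seen. That of Icos to Ctla4 was 1.96 and 1.98 (change 1.01, 0.904 to 1.13), and that of Cd200 to Cd28 was 0.429 and 0.423 (change 0.988, 0.880 to 1.11). That of Btla to Pdcd1 was 0.597 and 1.65, a change of 2.76 (2.39 to 3.19). The summed reads of Ctla4, Pdcd1 and Btla were 0.706 of those of Cd28 and Icos under Control and 0.623 under TSA (change 0.883, 0.823 to 0.948).

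**Figure D4:**
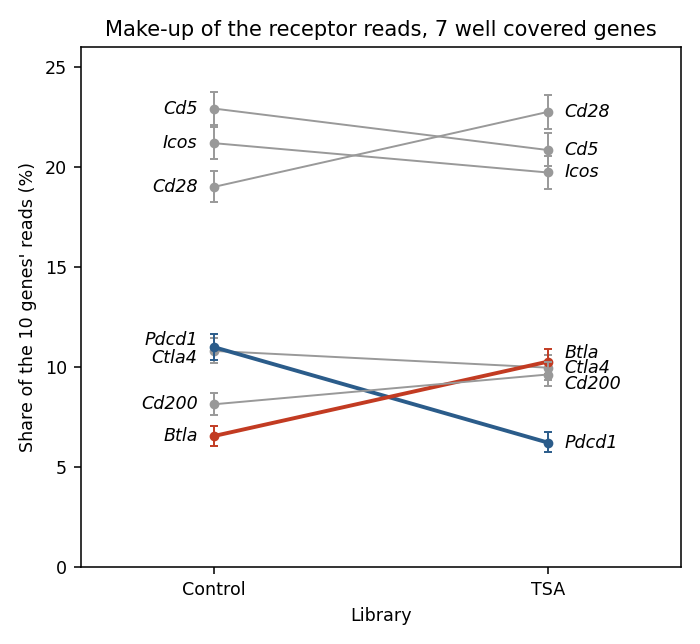
Share of each of the 7 well covered receptors in the reads of all 10, in percent, in the Control and the TSA library, with bars for the exact 95% counting interval. Pdcd1 (blue) goes from 11.0% to 6.24% and Btla (red) from 6.57% to 10.3%, so that their lines cross.

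The inhibitory receptors outside the CD28 family were close to the limit of detection after 1 day. Lag3, whose product binds MHC class II, had 17 and 32 reads, or a CPM of 1.57 and 3.07, a fold change of 1.82 (1.005 to 3.58). Its lower bound lies almost at no change. Havcr2, which encodes TIM-3, had 9 and 6 reads, or a CPM of 0.830 and 0.575, a ratio of 0.694 with an interval of 0.193 to 2.08. Tigit, which encodes a receptor for the poliovirus receptor, had 1 and 6 reads, or a CPM of 0.0922 and 0.575. Its ratio of 3.47 had an interval of 0.721 to 273. Differences in Havcr2 and Tigit were not detectable at this depth. In the Control library Btla, the lowest of the other 7 receptors, still had 37.5 reads for each Lag3 read (23.3 to 64.8).

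Cd200 and Cd5 were both well covered. Cd200 had 792 and 901 reads, or a CPM of 73.0 and 86.4, a fold change of 1.13 (1.02 to 1.24). Cd5 had the most reads of the receptors in the Control library, with 2228 and 1950 reads, or a CPM of 205 and 187, a fold change of 0.867 (0.815 to 0.921). Cd6, which encodes the closest relative of CD5, had 1593 and 1235 reads, with a fold change of 0.767 (0.712 to 0.827), and so was lower as well.

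Several of the receptors are neighbours in the genome, in the GENCODE M21 annotation of GRCm38, the mm10 assembly that the submitters' processing notes name. Cd28 (60716800 to 60773359), Ctla4 (60887000 to 60915832) and Icos (60977927 to 61000320) follow each other on the plus strand of chromosome 1, with gaps of 113.64 kb and 62.1 kb and with 0 other protein-coding genes between them. In this cluster Cd28 was higher, and Ctla4 and Icos were lower. Btla (45224315 to 45257670, plus strand) and Cd200 (45382135 to 45409053, minus strand) lie 124 kb apart on chromosome 16, with 0 protein-coding genes between them, and both were higher. Pdcd1 lies on the minus strand of chromosome 1 from 94038305 to 94052553, Cd5 on the minus strand of chromosome 19 from 10717116 to 10739002 and Lag3 on the minus strand of chromosome 6 from 124904361 to 124911705. Tigit lies on the minus strand of chromosome 16 from 43648867 to 43664146 and Havcr2 on the plus strand of chromosome 11 from 46454935 to 46481255. All 10 are protein-coding, and no exon of another annotated gene overlapped theirs.

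None of the 6 ligands and partners with at least 10 reads in both libraries differed by 2-fold, and their median log2 fold change was -0.16. Of 14 listed ligands and partners, 13 had a row and 9 had enough reads. Of these 9, 2 were lower by more than 2-fold (3.15% of all genes tested) and 0 were higher (11.5%). Both, Cd80 and Cd200r1, reached 10 reads only under Control, where they were high, so this count is no support for a lower list. As deposited 3 others, Pdcd1lg2, Pvr and Lgals9, had intervals below no change (28.0% of all genes tested), which with total-read scaling included no change, while that of Cd72 then lay above it. The 9 genes had a median log2 fold change of -0.28, which was unchanged with the genes at 0 reads set to their bound. Cd80, a B7 ligand of CD28 and CTLA-4, had 12 reads under Control and 0 under TSA, at least 4.04-fold lower with the TSA library set at 3 reads and the 12 reads taken as exact. The counting interval of its fold change reached up to 0.356, so it allows a smaller difference. Its partner Cd86 had 13 and 8 reads, with a fold change of 0.637 (0.219 to 1.59). Cd200r1, the receptor for CD200, had 10 and 0 reads, at least 3.37-fold lower on the same terms, with an interval that reached up to 0.442. The 5 myeloid markers summed to 28 and 25 reads beside these genes. Csf1r (9 and 2 reads) and Adgre1 (4 and 0) had fewer reads under TSA, while Lyz2 (6 and 10), Itgam (7 and 9) and Cd14 (2 and 4) had more, each with an interval that included no change. Of the dendritic cell markers, Itgax had 4 and 0 reads, Flt3 0 and 33 and Zbtb46 2 and 11. Their part in the values was not tested. Both ligands of PD-1 were well above the limit. Cd274 (PD-L1) had 452 and 414 reads, with a fold change of 0.908 (0.792 to 1.04), and Pdcd1lg2 (PD-L2) had 358 and 296 reads, with a fold change of 0.819 (0.699 to 0.958). Pvr, a ligand of TIGIT, had 341 and 283 reads, with a fold change of 0.822 (0.699 to 0.965). Lgals9, which encodes a ligand of TIM-3, had 936 and 851 reads, with a fold change of 0.901 (0.819 to 0.989). Cd72, which encodes a proposed ligand of CD5 and had the most reads of the list, had 1282 and 1394 reads, with a fold change of 1.08 (0.997 to 1.16). Tnfrsf14, which encodes the BTLA ligand HVEM, had 0 reads in both libraries, which allows up to 3 reads in each, and Icosl, the ligand of ICOS, had 7 and 2 reads.

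Receptors related to the members moved in both directions. Of 17 listed, 16 had a row and 12 were tested, of which 1 passed 2-fold upward (11.5% of all genes tested) and 1 downward (3.15%), with a median log2 fold change of 0.014. Slamf6, a homophilic receptor of the SLAM family, had 41 and 105 reads, with a fold change of 2.50 (1.75 to 3.73). Cd226, the activating receptor that shares its ligands with TIGIT, had 160 and 80 reads, with a fold change of 0.498 (0.374 to 0.651), which was within 2-fold with total-read scaling. Lair1, an inhibitory collagen receptor, had 91 and 164 reads, with a fold change of 1.78 (1.37 to 2.33). Cd4, a relative of Lag3 and the gene of this list with the most reads, had 2434 and 2549 reads, with a fold change of 1.04 (0.981 to 1.10), an interval that lay above no change with total-read scaling.

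None of the 21 tested signalling genes passed 2-fold, where 11.5% of all genes tested were higher and 3.15% lower by that much. Their median log2 fold change was -0.025, and 8 were higher and 13 lower at any size, but with scaling by total reads the median was 0.046, with 13 higher and 8 lower. As deposited, 48.6% of all genes tested and 57.1% of the well covered genes were lower at any size. Lck, the kinase that starts T cell receptor signalling and the gene of this list with the most reads, had 4531 and 4187 reads, with a fold change of 0.915 (0.877 to 0.954). The phosphatases that bind the tails of PD-1 and BTLA were both lower as deposited, although with total-read scaling the intervals of Ptpn11 and of Lck included no change. Ptpn6 (SHP-1) had 2833 and 2153 reads, with a fold change of 0.753 (0.711 to 0.796), and Ptpn11 (SHP-2) had 833 and 734 reads, with a fold change of 0.873 (0.789 to 0.965). Ubash3b, which encodes a phosphatase that restrains T cell receptor signalling, had 2506 and 1766 reads. Its fold change of 0.698 (0.656 to 0.742) was the lowest of the list. Cblb had the highest, with 56 and 82 reads and a fold change of 1.44 (1.02 to 2.07). As deposited, the intervals of Inpp5d, Itch, Pag1 and Csk included no change. Over the list, intervals lay above no change for 5 genes and below it for 7, or for 5 and 3 with total-read scaling. Pik3cd, the catalytic subunit of the lipid kinase recruited by CD28 and ICOS, had 3109 and 3535 reads, with a fold change of 1.13 (1.07 to 1.18). Of the 8 genes listed for CTLA-4 trafficking, 6 were tested and 0 passed 2-fold, a count too small to read against the 11.5% and 3.15% of all genes tested, with a median log2 fold change of -0.044, which was 0.026 with total-read scaling. Arf1, a small GTPase and the gene of that list with the most reads, had 3177 and 3110 reads (fold change 0.969, 0.922 to 1.02). Lrba, which protects CTLA-4 from degradation, had 451 and 392 reads (0.861, 0.750 to 0.988, which included no change with total-read scaling). Rab11a, the highest of the tested genes of that list, had 652 and 757 reads (1.15, 1.03 to 1.28). Its interval lay above no change under every scaling tried.

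Transcriptional regulators of inhibitory receptors differed in both directions. Of 20 listed, 19 were tested and 0 passed 2-fold, where 11.5% of all genes tested were higher and 3.15% lower by that much. Their median log2 fold change was 0.18. Intervals lay above no change for 9 (28.1% of all genes tested) and below it for 4 (28.0%). At any size 13 were higher and 6 lower, where 51.3% of all genes tested and 42.8% of the well covered genes were higher. Irf4, the activation-induced factor with the most reads of the list, had 6675 and 10749 reads, with a fold change of 1.59 (1.55 to 1.64). Nfatc1, an NFAT factor that acts on the Pdcd1 gene in activated T cells, had 1636 and 2239 reads, with a fold change of 1.35 (1.27 to 1.45). Maf had 1192 and 1706 reads, with a fold change of 1.42 (1.32 to 1.53), and Nr4a3, an orphan receptor induced by T cell receptor signalling, had 4286 and 5479 reads, with a fold change of 1.27 (1.22 to 1.32). Batf, an AP-1 family partner of IRF4, was lower, with 362 and 270 reads and a fold change of 0.739 (0.628 to 0.867). The other 3 with an interval below no change were Foxp3, given above and the lowest of the list, Nr4a2 and Tox. Nr4a2, of the same family as Nr4a3, had 499 and 375 reads, with a fold change of 0.744 (0.649 to 0.853). Tox, a factor of T cell exhaustion, had 339 and 291 reads, with a fold change of 0.851 (0.724 to 0.997), an interval that included no change with total-read scaling. Nr4a1, the remaining member of the Nr4a family, had 2285 and 2408 reads, with a fold change of 1.04 (0.985 to 1.11). Tbx21, which encodes T-bet and can repress Pdcd1, had 1974 and 2394 reads, with a fold change of 1.20 (1.13 to 1.28).

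**Figure D5:**
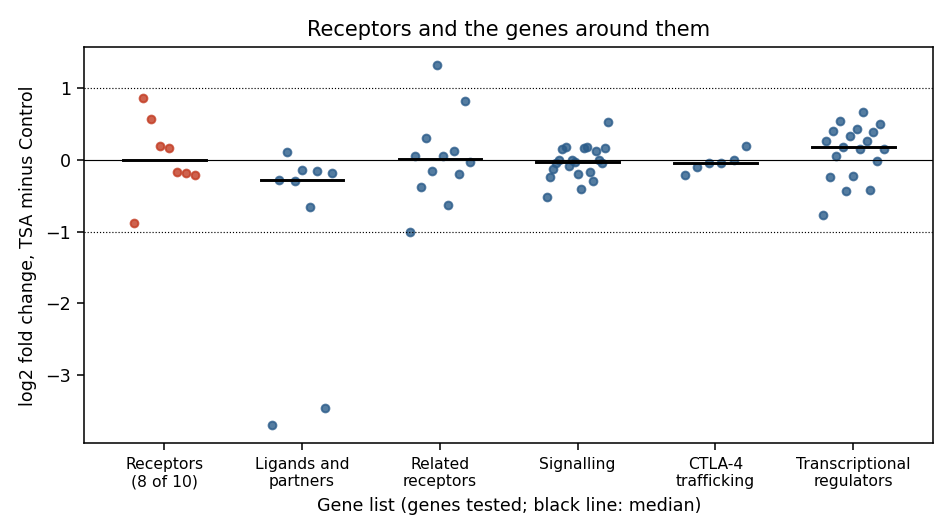
The log2 fold change (TSA minus Control) of each tested gene in the receptor set and in the lists of ligands, related receptors, signalling genes, CTLA-4 trafficking genes and transcriptional regulators, with black lines for the medians and dotted lines at 2-fold. The receptors range from -0.89 to 0.86, the signalling genes from -0.52 to 0.53, and the lowest ligands, Cd80 and Cd200r1, had 0 reads in the TSA library, so that their points depend on the 1 count added.

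The genes whose pair of values was most like that of Pdcd1 were Tacc3, Tyms and Treml2, by the distance between deposited log2 values over 2 libraries. Tacc3 had 1098 and 579 reads (distance 0.040), Tyms 1086 and 598 reads (0.043) and Treml2 1083 and 566 reads (0.047). With 2 libraries, this likeness means a similar level in each and no more.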

How the data were processed

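Total RNA of 1 culture per condition was made into QuantSeq 3′ libraries and read from 1 end for 75 nt on a NextSeq instrument, and the authors analysed them with ExDEGA. The submitters' processing notes name Bowtie2, bedtools and mm10. The normalization, the annotation and the use of strand in counting are not given in the sources used here. The authors deposited log2 values, each log2 of a normalized count plus 1. Taken off the log2 scale, 1 read was worth 1.005 normalized counts under Control and 0.995 under TSA, and 99.95% and 99.9% of genes with up to 300 reads lay within 0.1 of a whole read, so reads were recovered by rounding. For genes with many reads the 3 decimals deposited leave the last digits of the reads inexact.

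A fold change is the TSA value minus the Control value, taken off the log2 scale, and keeps the 1 count added, which understates changes of low genes. Intervals use the reads. Within-library ratios are conditional odds ratios with exact 95% intervals. With 1 library per condition no test of the conditions was possible. The members and gene lists were chosen with earlier results of these data known. Named genes are the members, the genes of each list past 2-fold and the one with most reads, the 3 genes most like Pdcd1, and Foxp3 and Hdac6. The others were named after their values were seen. The steps were tested on simulated data. Alternatives for scaling, pseudocount, filter, threshold and reference gene were tried. Vsir was matched by an older symbol through a RefSeq table of GRCm38.p6. Nectin2 and Pvrig were not analysed here. Python 3.11.15, numpy 2.4.6, scipy 1.17.1 and pandas 2.3.3 were used.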

Additional observations from a re-analysis of the deposited data

How the results depend on the processing

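No paired analysis was possible because each condition had 1 library, and for the same reason none could be left out. All 10 receptors kept their direction under the 4 scalings tried. The 2 pseudocounts, added alike to both libraries, could change the size of a difference but not its direction. Over these settings the log2 fold changes ran from -0.89 to -0.82 for Pdcd1, from 0.57 to 0.65 for Btla, from -0.59 to -0.36 for Havcr2 and from 0.87 to 2.46 for Tigit. The intervals of Havcr2 and Tigit included no change, so their kept direction says little. Without a filter, 1 receptor, Tigit, was higher by more than 2-fold, as were 2 ligands, 1 trafficking gene and 1 regulator, and 2 related receptors and 3 ligands were lower. These higher genes, Tigit, Fgl1, Ceacam1, Pld1 and Tox2, stayed under 10 reads in both libraries, and their intervals included no change. The share over all genes without a filter was not computed. With a 1.5-fold threshold, 3 ligands were lower, 1 receptor was higher and 1 lower, 2 related receptors were higher and 2 lower, and 1 regulator was higher and 1 lower. Of all genes tested, 18.7% were higher and 8.34% lower by that much. The 3 ligands, Cd80, Cd200r1 and Cd86, reached 10 reads only under Control, where they were high. With at least 10 reads in both libraries, or a mean normalized count of at least 50, 0 ligands were lower by more than 2-fold, since Cd80 and Cd200r1 left the genes tested, and with the latter filter the receptors' median was -0.17, since Lag3 left. With scaling by total reads, scaling by the upper quartile or a pseudocount of 5, 0 related receptors were lower by 2-fold. With Cd5 as the reference, the change of the within-library ratio was 1.01 for Ctla4 and 1.02 for Icos, the other direction from that with Cd28, and 0.623 for Pdcd1. The cause was not tested, but Cd5 itself was lower and Cd28 higher. Depth limits Lag3, Havcr2, Tigit, Cd80, Cd86 and Cd200r1.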

Other observations

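Protein-coding genes within 200 kb of the receptors were looked up after the receptors' values were seen. Beside Cd28, Raph1, which encodes the actin regulator lamellipodin, had 277 and 401 reads, with a fold change of 1.43 (95% interval 1.23 to 1.68). Beside Btla, Slc35a5, a sugar transporter family gene, had 74 and 106 reads, with a fold change of 1.41 (1.04 to 1.94), and Atg3, which encodes an autophagy enzyme, had 378 and 325 reads, with a fold change of 0.852 (0.732 to 0.990). Ccdc80, the gene of a secreted matrix protein that lies 96.2 kb from Btla, had 0 reads under Control and 10 under TSA. As deposited, the neighbours of Btla thus differed in both directions. The lower side rests on Atg3 alone, whose interval included no change with total-read scaling. Around Lag3, 22 neighbours were tested, with intervals above no change for 4 and below it for 12, and a median log2 fold change of -0.25, while Lag3 itself was higher. Around Cd5, 14 were tested, with 2 above and 8 below. Over all 46 pairs of a receptor and a tested neighbour, 10 lay above and 24 below, where 23.4% of well covered genes lay above and 36.5% below, and 28.1% and 28.0% of all genes tested. Pianp, 85.0 kb from Lag3, encodes a ligand of the inhibitory receptor PILRα and had 3 and 62 reads, a ratio of 15.6 with an interval of 6.69 to 102.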
